A study of Mus musculus with 23 samples.

Results

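The CD41-positive fraction of haematopoietic stem cells (HSC) was set against the CD41-negative fraction of the same sort gate, in mice that express the V617F form of the kinase JAK2. The comparison rests on 6 of the 23 libraries of the series: V617F CD41-positive HSC 1, 2 and 3, and V617F CD41-negative HSC 1, 2 and 3. The mice were SclCre;V617F on a C57BL/6 background, in which tamoxifen activates a Cre recombinase driven by the Scl promoter. After a 5-day tamoxifen course the animals were left for 12 weeks before their marrow cells were sorted. The other groups used here were WT CD41-positive HSC (2 libraries), WT CD41-negative HSC (3 libraries), V617F megakaryocyte progenitors (MkP, 3 libraries) and V617F long-term HSC (LT-HSC, 3 libraries). The WT mice were also given tamoxifen, and the labels do not say whether they carried the Cre. Number 2 of both V617F fractions came from a male, per the labels, and numbers 1 and 3 came from females. The CD41 libraries were made with SMART-Seq v4 and the MkP and LT-HSC libraries with SMART-Seq v2, so levels were never compared across these protocols. The labels do not say whether replicates were separate animals, so a p-value measures the spread between these libraries.

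CD41 is integrin alpha-IIb, encoded by Itga2b, which pairs with integrin beta-3 to form the fibrinogen receptor of platelets. In the mouse marrow it is carried by megakaryocytes and their progenitors, and also by a subset of HSC that is known for a bias towards the platelet and myeloid lineages and that grows with age. JAK2 transmits the signals of the erythropoietin and granulocyte colony-stimulating factor receptors, and V617F keeps the kinase active in myeloproliferative neoplasms.

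Total counts were 18.2, 20.2 and 22.2 M reads in the V617F CD41-positive libraries, against 28.5, 21.5 and 27.5 M reads in the CD41-negative libraries, so depth moved with the fraction. Its part in the differences was not tested. Spearman correlations were 0.989 to 0.995 within a fraction and 0.945 to 0.969 between fractions. CD41-positive library 2 lay nearer to the CD41-negative libraries than libraries 1 and 3 did, at 0.965 to 0.969, and it had lower levels of many platelet transcripts. Counts without it, and without both male libraries, were therefore computed as well.

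The sort was visible in the target transcript. Itga2b stood at 742, 611 and 737 CPM (read counts scaled to an equal library size) in V617F CD41-positive HSC, against 96.4, 113 and 136 CPM in CD41-negative HSC, a description only, since CD41 chose the cells. Slamf1, which encodes the gate marker CD150, was 1.72-fold higher in CD41-positive HSC, with 101, 93.1 and 96.4 CPM against 57.8, 52.9 and 57.5 CPM. Ly6a, which encodes the gate marker Sca-1, was 4.23-fold lower, with 48.7, 53.1 and 42.4 CPM in CD41-positive HSC against 256, 182 and 171 CPM in CD41-negative HSC. Neither gene's ranges overlapped, and both passed the test (adjusted p = 0.000615 for Slamf1 and 1.23e-05 for Ly6a, edgeR quasi-likelihood F test, Benjamini-Hochberg over all genes). Kit averaged 1080 ± 112 CPM in CD41-positive HSC and 1690 ± 146 CPM in CD41-negative HSC (SD, n = 3 each), and did not pass (adjusted p = 0.0594), but did with the replicate numbers as a block in all 11 CD41 libraries (0.00131), the fit called the replicate block below. Cd48, the marker the gate excludes, stood at 3.64 to 9.28 CPM in CD41-positive HSC and 6.2 to 9.67 CPM in CD41-negative HSC (log2 difference -0.31 ± 0.33, SE).

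CD41-positive V617F HSC carried more transcripts of platelet and erythroid genes and of the cell division machinery, and fewer of stem cell, lymphoid, antigen presentation, cytokine receptor and interferon response genes. Of 14467 genes tested, 2376 (16.4%) were higher and 2584 (17.9%) lower in the CD41-positive fraction at an adjusted p under 0.05, 34.3% in all. Among these, 689 were higher and 1106 lower by 2-fold or more, and 148 higher and 294 lower by 4-fold or more. Without CD41-positive library 2 4721 genes were called, 2232 of them higher, and without both number 3 libraries 2224 were called. The ranges of the 3 and 3 libraries did not overlap for 56.1% of the genes tested. With the replicate numbers as a block and only these 6 libraries, 8196 genes were called, 4121 higher and 4075 lower. The median log2 difference over all genes was -0.02, against which each list below is read. In bulk RNA, fewer cells of a type cannot be told apart from less RNA per cell.

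Genes of platelets and their progenitors were among the largest increases. Pf4, the platelet alpha-granule chemokine platelet factor 4, stood at 641, 187 and 620 CPM in CD41-positive HSC, against 11.5, 7.73 and 11.5 CPM in CD41-negative HSC. All CD41-positive libraries were above all CD41-negative ones, although library 2 was well below the other CD41-positive libraries. The log2 difference was 5.55 ± 0.44 (SE), 46.8-fold (adjusted p = 6.37e-06). Pde10a, a phosphodiesterase that breaks down cyclic nucleotides, had 40, 16.9 and 41.9 CPM in CD41-positive HSC, against 0.713, 0.674 and 0.741 CPM in CD41-negative HSC (45.9-fold). Gp1bb, a subunit of the platelet receptor for von Willebrand factor, had 113, 59 and 112 CPM against 4, 2.2 and 4.24 CPM (26.9-fold). Ache, acetylcholinesterase, a classical enzyme marker of rodent megakaryocytes, was 25.4-fold higher. The same order recurred in each: library 2 was the lowest of the CD41-positive libraries and the ranges did not overlap. The remaining genes among the 15 largest increases were F10 (coagulation factor X), Tuba8 (an alpha-tubulin), Fcer1a (a chain of the IgE receptor), Cavin2 (a caveolar coat protein), Alox5 (5-lipoxygenase), Mfsd2b (a sphingosine-1-phosphate exporter of red cells and platelets), Lhfp, Robo3, F2rl2 (a thrombin receptor of the protease-activated family), Ackr1 (a chemokine-binding receptor) and Serpine2 (a thrombin inhibitor). Their log2 differences ran from 3.32 to 4.74.

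The largest decrease was in Gfi1, a transcriptional repressor known for restraining the proliferation of mouse HSC and for granulocyte development. It had 1.88, 1.4 and 0.469 CPM in CD41-positive HSC, against 28.3, 43.2 and 21.8 CPM in CD41-negative HSC (25.2-fold lower, adjusted p = 3.97e-05). Its paralogue Gfi1b, which acts in the megakaryocyte and erythroid lineages, was 2.07-fold higher, with 192, 196 and 230 CPM against 89.6, 110 and 99.4 CPM. Both paralogues had ranges that did not overlap, in opposite directions. Cd53, a leukocyte tetraspanin, had 7.97, 12.1 and 5.44 CPM in CD41-positive HSC against 170, 104 and 92.4 CPM in CD41-negative HSC (14.3-fold lower). Nov, a secreted matricellular protein, differed between replicate numbers as well: CD41-positive libraries 1, 2 and 3 had 0.968, 4.63 and 1.92 CPM, and CD41-negative libraries 1, 2 and 3 had 15.5, 34.3 and 17.5 CPM. Number 2 was the highest in both fractions, and the difference was 8.86-fold lower in CD41-positive HSC (adjusted p = 0.00131). The other large decreases were Ctss (cathepsin S), Dusp22, Dglucy, Hk3 (a hexokinase), Sgsm1, Bcam (an adhesion molecule), Trib2 and Trib3 (pseudokinases), Phldb2, P2rx7 (an ATP-gated channel), Crybg1 and Satb1 (a chromatin organiser of lymphoid cells), with log2 differences from -3.33 to -2.83.

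**Figure D1:**
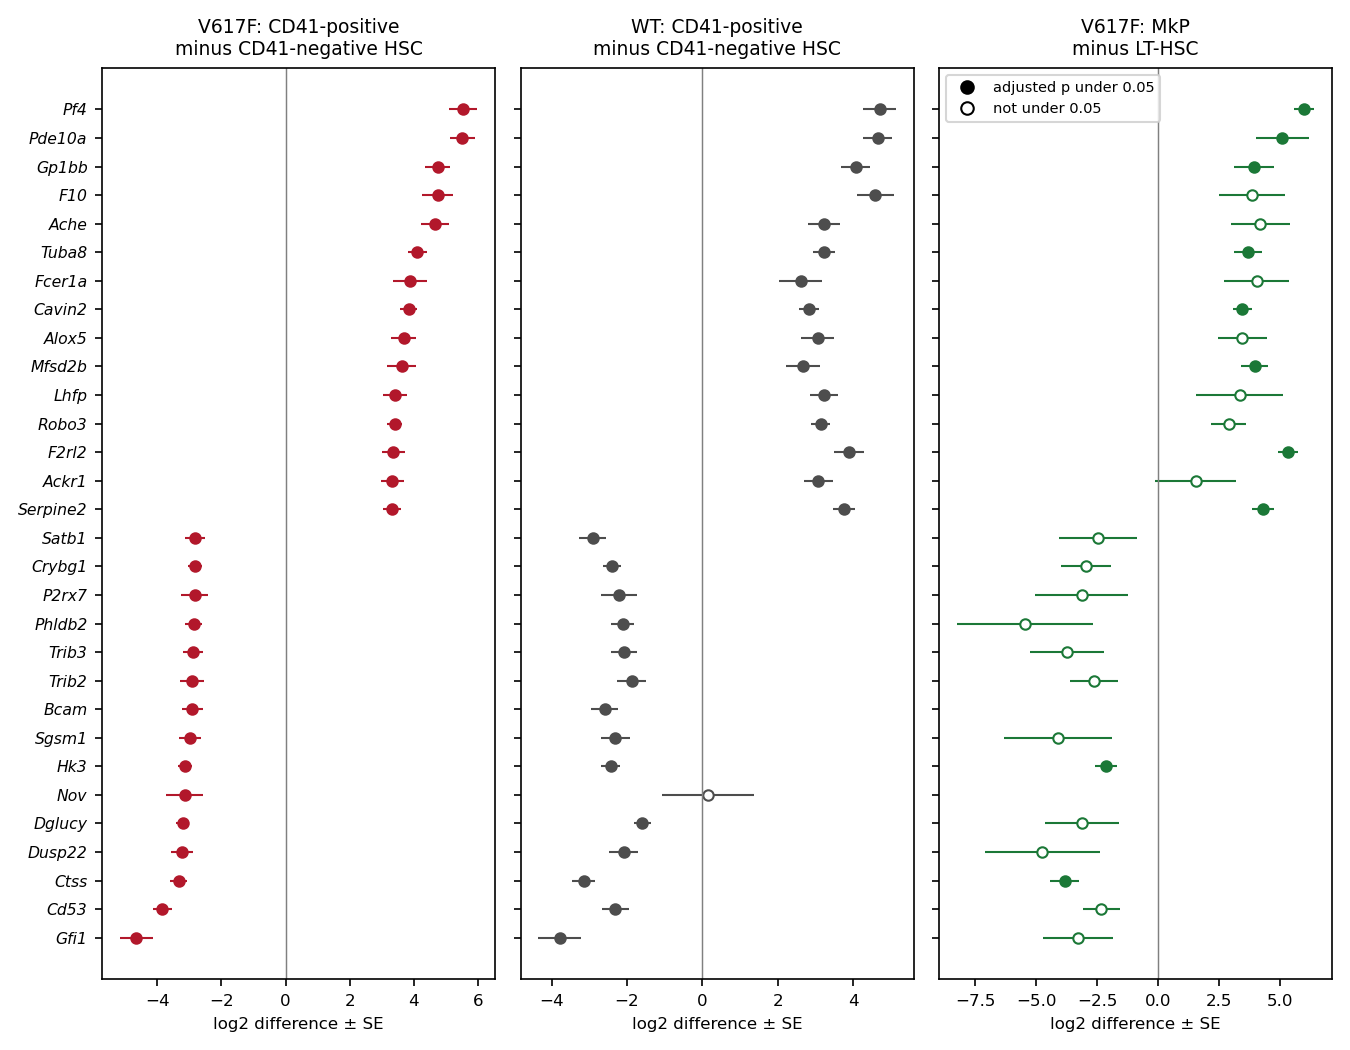
Log2 difference ± SE (x axis) of the 15 genes with the largest increase and the 15 with the largest decrease in V617F CD41-positive HSC, in 3 comparisons: the V617F CD41 fractions (left), the WT CD41 fractions (middle) and V617F MkP against LT-HSC (right). Filled points passed an adjusted p of 0.05, and the x axes differ in range; the genes were chosen on the left panel, and Bcam and Nov, at or near 0 in MkP, are not drawn in the right one.

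Among the receptors, integrins and coagulation receptors of platelets, 13 of 23 tested genes were higher and 4 lower, with a median log2 difference of 1.04. The higher genes include Itga2b, which is no finding, since CD41 chose the cells. P2ry1, an ADP receptor that starts platelet shape change, had 85.6, 57.1 and 73 CPM in CD41-positive HSC and 4.48, 9.35 and 8.93 CPM in CD41-negative HSC (9.5-fold, adjusted p = 6.99e-06). F2rl2 had 102, 40.7 and 70.3 CPM against 7.47, 5.84 and 7.24 CPM (10.3-fold). Itgb3, integrin beta-3, the partner of CD41, had 273, 253 and 270 CPM in CD41-positive HSC against 97.5, 109 and 108 CPM in CD41-negative HSC. Its 2.53-fold difference was smaller than that of Itga2b, and library 2 was close to the other CD41-positive libraries. Gp5, Gp1ba and Gp9, the other subunits of the von Willebrand factor receptor, were 4.78-fold, 2.83-fold and 2.96-fold higher. Treml1, F2r (a thrombin receptor), Cd9, Tbxa2r (the thromboxane receptor) and Clec1b (the podoplanin receptor) were also higher. Jam3, Itga2, Pear1 and Cd36 were lower, but the call of Itga2 was lost without CD41-positive library 1, and those of Pear1 and Cd36 when any of several single libraries was left out.

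Of the granule and secretion genes, 10 of 22 were higher and 1 lower (median log2 difference 0.69). Clu, clusterin, a chaperone stored in alpha-granules, had 97.4, 90.1 and 104 CPM in CD41-positive HSC and 8.48, 14.3 and 8.4 CPM in CD41-negative HSC (9.39-fold, adjusted p = 4.15e-06). Vwf, von Willebrand factor, a marker of platelet-biased HSC in the mouse, had 408, 309 and 452 CPM against 70.1, 90.2 and 85.2 CPM (4.76-fold). No library of one fraction reached the range of the other in either gene. Serpine2, Timp3, Ppbp, Rab27b, Pdgfb, Tgfb1 and F5 were higher as well. Nbeal2, a gene needed for alpha-granule formation, was lower, with 69.6 to 102 CPM in CD41-positive HSC and 156 to 196 CPM in CD41-negative HSC. Thbs1, thrombospondin, varied more between replicate numbers than between fractions: it stood at 17.9, 5.98 and 25.4 CPM in CD41-positive libraries 1, 2 and 3 and at 31.2, 1.57 and 55.4 CPM in CD41-negative libraries 1, 2 and 3, and did not pass.

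Of 26 cytoskeletal and signalling genes of megakaryocytes, 15 were higher and 1 lower (median log2 difference 0.44). Cavin2 had 294, 195 and 304 CPM in CD41-positive HSC and 18.4, 20.6 and 16.1 CPM in CD41-negative HSC (14.4-fold, adjusted p = 4.15e-06). Plek, pleckstrin, a protein kinase C substrate of platelets, had 468, 262 and 435 CPM against 64.4, 89 and 75.7 CPM (5.09-fold). Here too library 2 was the lowest of the CD41-positive libraries, and still above every CD41-negative one. Slc14a1, Rap1b (a small GTPase of integrin activation) and Pde5a were higher by log2 1.81, 1.63 and 1.54. Mctp1 was the 1 gene of the list that fell. Without both number 1 libraries 9 of these genes were called higher, and without both number 3 libraries 7 were.

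**Figure D2:**
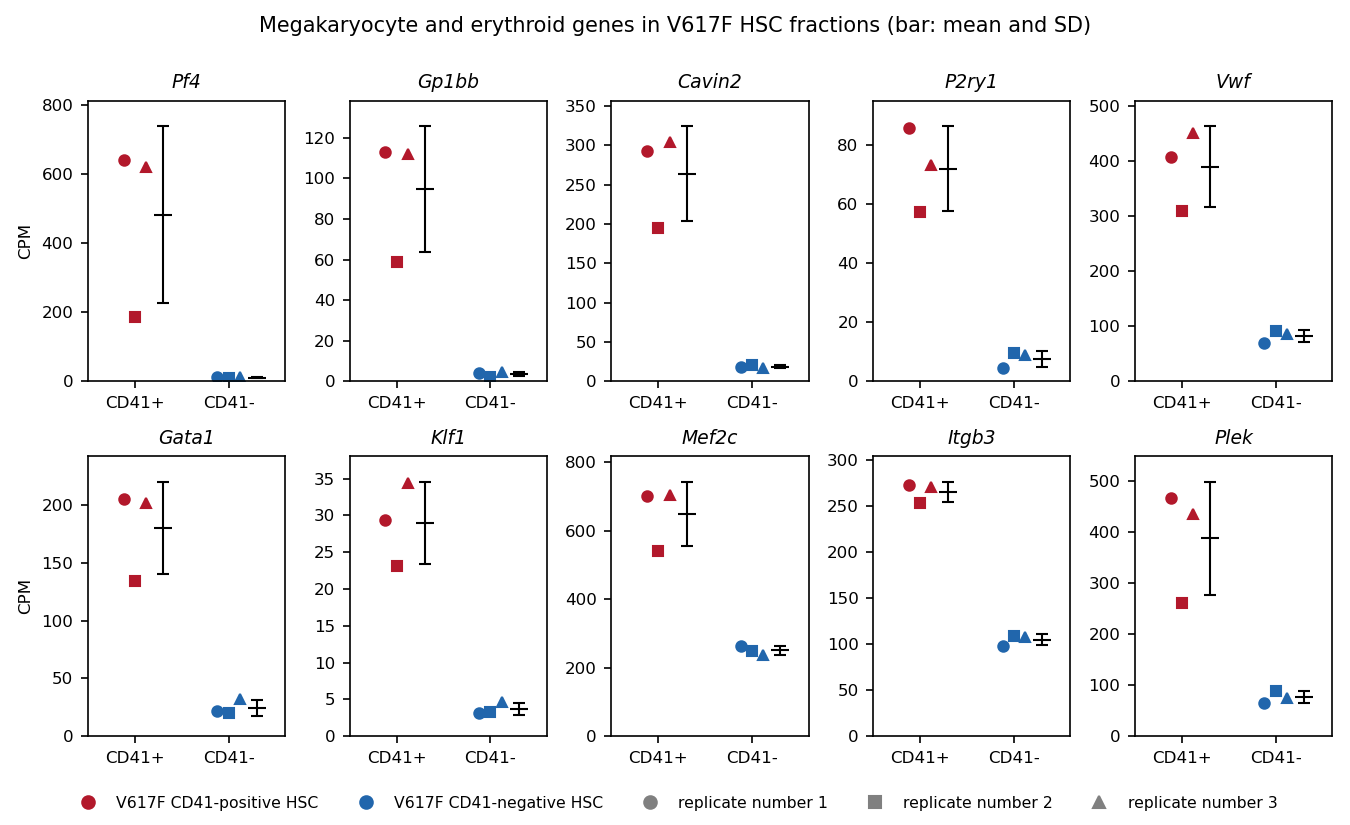
CPM (y axis, linear, from 0) of 10 megakaryocyte and erythroid genes in the 3 V617F CD41-positive and the 3 V617F CD41-negative libraries. Point shapes give the replicate number and bars the mean and SD; in every panel all CD41-positive points lie above all CD41-negative points, with number 2 the lowest of the CD41-positive points.

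The promoters of the 4 genes of the megakaryocyte lists with the smallest adjusted p among those called higher and with a RefSeq entry are shown because these genes moved together. Each is 250 bases before to 50 bases after the annotated start, 5′ to 3′ on the gene's strand, in GRCm38.p6: Cavin2 at chr1:51288876-51289175 (+), Itga2b at chr11:102469834-102470133 (-), Pf4 at chr5:90772185-90772484 (+) and P2ry1 at chr3:61002535-61002834 (+). Clu had no entry, and Itga2b is shown although CD41 chose the cells. Capitals mark AGATAA (the GATA motif), AGGAAG (an ETS motif) and TGTGGT (a RUNX motif), or their reverse complements, and no 2 matches overlap.
Cavin2: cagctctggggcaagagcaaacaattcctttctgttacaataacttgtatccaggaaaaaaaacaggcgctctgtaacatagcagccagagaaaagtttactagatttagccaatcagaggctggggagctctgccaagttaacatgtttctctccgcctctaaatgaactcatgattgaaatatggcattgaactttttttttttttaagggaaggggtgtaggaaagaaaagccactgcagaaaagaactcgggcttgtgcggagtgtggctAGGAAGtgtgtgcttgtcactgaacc
Itga2b: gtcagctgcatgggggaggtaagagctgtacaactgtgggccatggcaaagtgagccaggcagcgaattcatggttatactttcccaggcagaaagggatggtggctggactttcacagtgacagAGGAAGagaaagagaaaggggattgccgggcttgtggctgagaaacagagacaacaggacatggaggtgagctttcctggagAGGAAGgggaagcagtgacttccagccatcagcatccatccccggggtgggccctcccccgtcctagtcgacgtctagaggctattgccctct
Pf4: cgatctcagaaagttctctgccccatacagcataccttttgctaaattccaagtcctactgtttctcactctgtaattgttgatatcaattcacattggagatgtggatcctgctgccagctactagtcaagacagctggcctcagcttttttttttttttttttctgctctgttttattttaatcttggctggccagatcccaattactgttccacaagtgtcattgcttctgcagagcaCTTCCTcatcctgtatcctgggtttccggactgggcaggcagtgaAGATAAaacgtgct
P2ry1: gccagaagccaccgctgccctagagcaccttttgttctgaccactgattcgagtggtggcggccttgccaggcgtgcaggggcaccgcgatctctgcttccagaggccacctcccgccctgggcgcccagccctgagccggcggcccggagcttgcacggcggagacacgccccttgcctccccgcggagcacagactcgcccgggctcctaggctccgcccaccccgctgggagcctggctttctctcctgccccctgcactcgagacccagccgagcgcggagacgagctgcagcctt
The Itga2b window held 2 ETS matches on its own strand, the Cavin2 window 1 ETS match, and the Pf4 window 1 GATA match and, on the opposite strand, 1 ETS match. The P2ry1 window held none of the 3 motifs. Over the 11312 tested genes with a window, 6.75% held the GATA motif, 33.6% the ETS motif and 12.7% the RUNX motif on either strand. Only 78.2% of the genes tested had a window, and these shares were not compared between called and other genes. The 4 windows shown cannot tell whether a motif is more frequent among the genes called higher, which was not tested.

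The transcription factors of the megakaryocyte and erythroid lineages moved in both directions, 8 of 23 higher and 4 lower, with a median log2 difference of -0.03 beside -0.02 over all genes. Gata1, the factor both lineages need, had 205, 134 and 202 CPM in CD41-positive HSC and 21.7, 19.9 and 32.5 CPM in CD41-negative HSC (7.3-fold, adjusted p = 3.72e-05). Klf1, the master regulator of red cell genes, had 29.3, 23.2 and 34.4 CPM against 3.12, 3.28 and 4.69 CPM (7.81-fold). Mef2c was 2.6-fold higher. All these ranges were apart. Fli1 and Zfpm1 (the GATA1 cofactor FOG-1) were also higher, as was Mafg (adjusted p = 0.0432, and 0.053 with the replicate block), and Ikzf2, Ets1, Hhex and Erg were lower. The call of Zfpm1 was lost without CD41-negative library 3, and those of Mafg, Hhex and Erg when any of several single libraries was left out. Gata2 had 489 ± 14.8 CPM in CD41-positive HSC and 430 ± 15.5 CPM in CD41-negative HSC (SD, n = 3 each; log2 0.19 ± 0.16), and like Nfe2, Tal1, Lmo2, Meis1 and Etv6 it did not pass. With the block in the 6 V617F libraries alone, Gata2 was higher (adjusted p = 0.0127) and Meis1, Lmo2 and Etv6 lower (0.0077, 0.0287 and 0.0252). Runx1 passed with the replicate block (adjusted p = 0.117, and 0.0441 with the block).

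Early erythroid genes rose with the platelet genes. Of 25 erythroid genes tested, 10 were higher and 2 lower (median log2 difference 0.63). Epor, the erythropoietin receptor, had 51.8, 36.8 and 49.9 CPM in CD41-positive HSC against 7.84, 8.45 and 11.5 CPM in CD41-negative HSC (4.98-fold, adjusted p = 6.56e-05). Aqp1, a water channel of red cells, had 98.5, 78.5 and 125 CPM against 8.96, 11.4 and 15.5 CPM (8.41-fold). Both genes separated the fractions without overlap. Cited4, Mfsd2b, Urod and Blvrb (enzymes of haem metabolism), Tfrc (the transferrin receptor) and Sptb (a membrane skeleton protein of red cells) were higher too, Sptb with overlapping ranges. The calls of Tfrc and Sptb were lost when any of several single libraries was left out. The beta-globins went the other way: Hbb-bt had 14.6, 10.7 and 13.5 CPM in CD41-positive HSC against 72.3, 23 and 37.9 CPM in CD41-negative HSC, and Hbb-bs 11.4, 6.88 and 9.7 CPM against 42.4, 14.7 and 23.7 CPM. These 2 genes are near-identical copies, so reads may be split between them, and the call of Hbb-bs was lost when any 1 of 5 of the V617F libraries was left out. Alas2 and Hba-a1, which mark later red cells, stayed under 1 CPM in all 6 libraries.

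Stem cell genes were more often lower than higher in CD41-positive HSC: 15 of 34 tested were lower and 6 higher, with a median log2 difference of -0.50. Hlf, a transcription factor that marks HSC in mouse and human, had 102, 182 and 114 CPM in CD41-positive HSC and 438, 486 and 445 CPM in CD41-negative HSC (3.45-fold lower, adjusted p = 8.11e-05). Procr, the protein C receptor EPCR, had 14.4, 37.4 and 12.2 CPM against 118, 133 and 99.9 CPM (5.48-fold lower). Mecom, a zinc-finger factor that HSC need for maintenance, had 98.3, 116 and 98 CPM against 187, 228 and 237 CPM (2.09-fold lower). In each of these, library 2 was the highest of the CD41-positive libraries and still below every CD41-negative one. Fgd5, Robo4, Mllt3, Txnip, Ifitm1, Hoxa9, Hoxa10, Prdm16 and Sult1a1 were also lower. Ltb (lymphotoxin beta), on this and the lymphoid list, was 5.16-fold lower. Gfi1 and Ly6a complete the lower genes. The 6 higher genes were Vwf, Slamf1, Ctnnal1, Fhl1, Nr4a2 and Cdkn1a (adjusted p = 0.0447 for Cdkn1a, and 0.0552 with the replicate block). The calls of Hoxa10, Prdm16, Sult1a1 and Cdkn1a were lost when any of several single libraries was left out. Tek, Hoxb4, Hoxb5, Bmi1 and Pdzk1ip1 did not pass, with log2 differences from -0.24 to 0.15, though Bmi1 was lower with the block in the 6 V617F libraries alone (adjusted p = 0.0129).

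Of 24 markers of stem cell ageing, 11 were higher and 1 lower (median log2 difference 0.51), and 6 of the 24 are also on the platelet or stem cell lists as genes that rose. Beyond these, Mt1, a metallothionein, had 44, 14.9 and 36.7 CPM in CD41-positive HSC and 9.2, 3.33 and 6.35 CPM in CD41-negative HSC (5.02-fold), and Aldh1a1, Gstm2, Nupr1 and Mt2 were higher, Mt2 not when any of several single libraries was left out. Alcam was 3.55-fold lower. Selp and Jun did not pass in the fit of all 11 libraries and varied between replicate numbers: Selp stood at 109, 47.2 and 104 CPM in CD41-positive libraries 1, 2 and 3 and at 126, 43.3 and 117 CPM in CD41-negative libraries 1, 2 and 3.

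Lymphoid priming genes fell together. Of 14 tested, 10 were lower and 2 higher, with a median log2 difference of -1.08, the lowest of the 31 lists. Flt3, the receptor that marks the passage to multipotent and lymphoid progenitors, had 12.2, 21.7 and 12.9 CPM in CD41-positive HSC and 101, 104 and 88.2 CPM in CD41-negative HSC (6.25-fold lower, adjusted p = 6.81e-06). Satb1 had 1.65, 2.84 and 1.5 CPM against 16.3, 14.8 and 11.8 CPM (7.12-fold lower). Cd27, Notch1, Lck, Ikzf1, Dntt and Blnk were lower too, the last 2 at under 3 CPM throughout, and Blnk not with the replicate block (adjusted p = 0.0318, and 0.0537 with it). The call of Dntt was lost without CD41-negative library 1, and that of Blnk without CD41-negative library 1 or 2 or CD41-positive library 1 or 2 (adjusted p = 0.0536 to 0.109). The 2 higher genes were Mef2c and Il12a. Without both number 1 libraries 6 were called lower. Of 20 genes that rise as HSC become multipotent progenitors, 10 were lower and 1 higher: Cd34 had 350, 487 and 322 CPM against 769, 765 and 701 CPM, and Spi1, Irf8, Cd37 and Csf3r were lower, whereas Cdk6, a kinase of the first cell cycle entry, was 2.51-fold higher.

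Antigen presentation genes of MHC class II followed the lymphoid genes, with 6 of 10 lower, none higher and a median log2 difference of -0.96. Cd74, the invariant chain, had 30.3, 37.5 and 18.9 CPM in CD41-positive HSC against 241, 210 and 157 CPM in CD41-negative HSC (7.03-fold lower, adjusted p = 8.04e-06). H2-Aa, H2-Ab1 and H2-Eb1, which encode the alpha and beta chains, were lower by log2 1.20, 0.99 and 1.31, and Ciita, the transactivator of the class II genes, was lower at 5.77 to 6.88 CPM against 9.99 to 14.3 CPM.

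**Figure D3:**
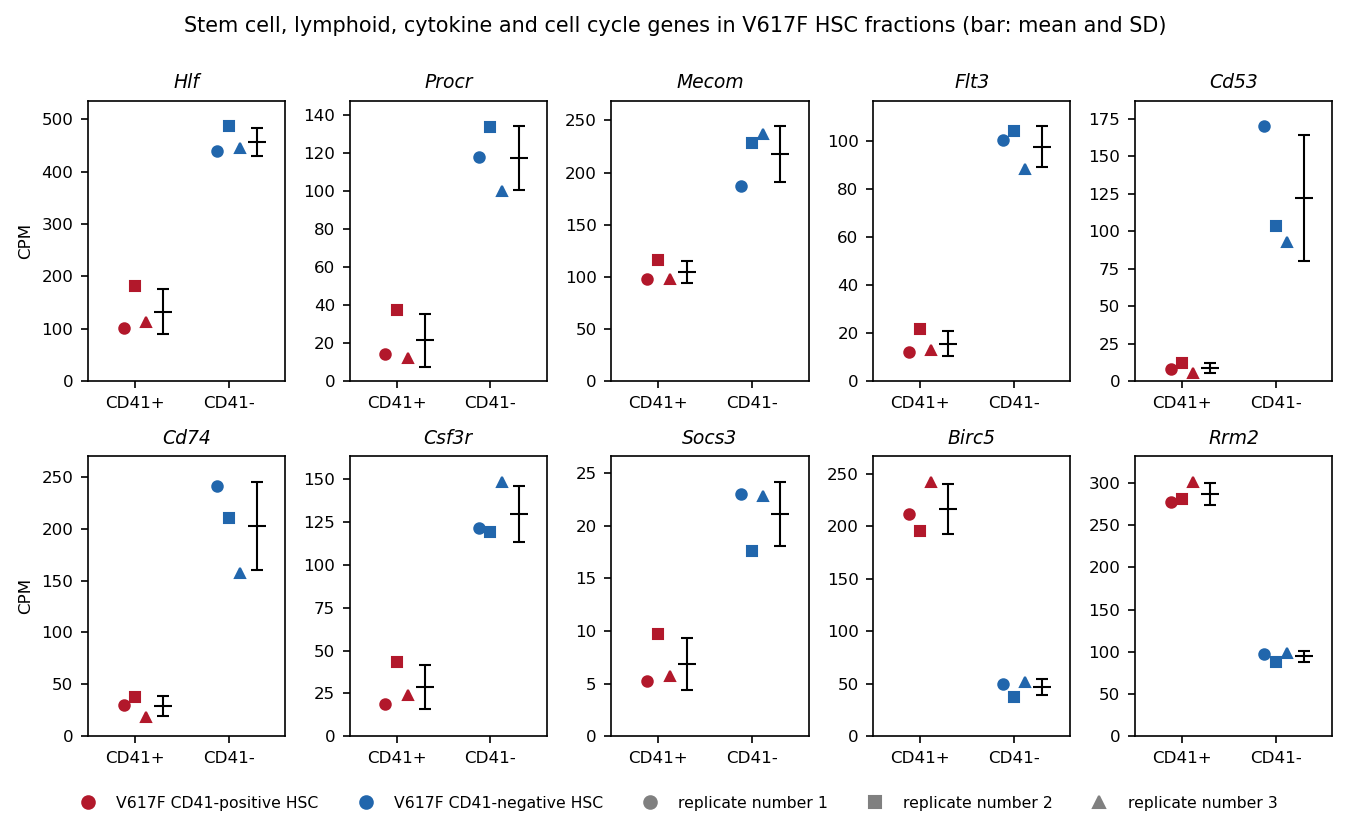
CPM (y axis, linear, from 0) of 10 stem cell, lymphoid, antigen presentation, cytokine and cell cycle genes in the 3 V617F CD41-positive and the 3 V617F CD41-negative libraries. Point shapes give the replicate number and bars the mean and SD; in 8 panels all CD41-positive points lie below the CD41-negative ones, and in those of Birc5 and Rrm2 all lie above.

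Genes of cell division were higher in CD41-positive HSC almost without exception. Of 30 genes of mitosis 29 were higher and none lower, with a median log2 difference of 1.69. Birc5, survivin, a subunit of the chromosomal passenger complex, had 212, 195 and 242 CPM in CD41-positive HSC and 49.8, 37.8 and 51.8 CPM in CD41-negative HSC (4.66-fold, adjusted p = 4.15e-06). Mki67, the proliferation antigen Ki-67, had 386, 369 and 477 CPM against 117, 99.8 and 140 CPM (3.45-fold). Aurkb, Cdk1, Ccna2, Aurka, Ube2c, Plk1 and Top2a rose by log2 1.55 to 2.51. Only Ect2 did not pass, with 52.1, 53.6 and 61.4 CPM against 49.3, 48.7 and 61.7 CPM. For Birc5 and Mki67, CD41-positive library 2 lay close to libraries 1 and 3. Of 32 genes of DNA replication 31 were higher and none lower (median 1.08), from Rrm2, a ribonucleotide reductase subunit, at 277, 281 and 302 CPM against 97, 87.5 and 99 CPM (3.03-fold), to Pold1 at log2 0.51; Pold2 passed only with the block in the 6 V617F libraries alone (adjusted p = 0.351, and 0.00604 with it), and the call of Pold1 was lost when any 1 of 5 of the V617F libraries was left out. All 6 tested MCM helicase subunits Mcm2 to Mcm7 were higher, by log2 0.74 to 1.02. Among 15 cyclins, kinases and inhibitors, 10 were higher and none lower, including Ccne1, Ccne2, E2f1, Cdk2, Cdk4, Ccnd3 and the inhibitors Cdkn2c, Cdkn2d and Cdkn1a, of which Cdk4, Cdkn2d and Cdkn1a lost the call when any of several single libraries was left out. Cdkn1b did not pass, and Ccnd2 was higher only with the block in the 6 V617F libraries alone (adjusted p = 0.0142). Ccnd1 (higher) passed only with the replicate block (adjusted p = 0.171, and 0.0161 with it). Cdkn1c (lower) did not pass (adjusted p = 0.0832). It did with the block (0.0257), without CD41-positive library 2 (0.0139) and without WT CD41-negative library 4 (0.0485). Without both number 1 libraries, and without both number 3 libraries, 6 of the 15 were called higher.

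Many genes of the JAK2 pathway were lower in CD41-positive HSC. Of 22 kinases, STATs and cytokine receptors, 11 were lower and 1, Epor, was higher, with a median log2 difference of -0.63. Jak2 itself had 209, 193 and 173 CPM in CD41-positive HSC and 219, 258 and 232 CPM in CD41-negative HSC, and was near the threshold (log2 -0.30 ± 0.13, adjusted p = 0.092, and 0.0499 with the replicate block). The counts do not separate the mutant from the normal transcript. Csf3r, the granulocyte colony-stimulating factor receptor, had 19, 43.1 and 23.8 CPM against 122, 119 and 149 CPM (4.53-fold lower, adjusted p = 5.3e-05). Sh2b3, the adaptor LNK that restrains JAK2, had 36.9, 48.5 and 41.4 CPM against 109, 110 and 128 CPM (2.73-fold lower). Csf2rb and its close copy Csf2rb2, subunits of the IL-3 receptor whose reads may be shared, were lower, as were Ifngr1, Ifngr2, Il6st, Jak1, Jak3 and Stat3, with the calls of Jak1 and Jak3 lost when any of several single libraries was left out. Stat5a and Stat5b, the main STATs below JAK2, did not pass (log2 -0.11 ± 0.11 and -0.29 ± 0.12), but Stat5b was lower with the block in the 6 V617F libraries alone (adjusted p = 0.0053). Without WT CD41-negative library 3, which enters only the estimate of the spread, 17 of the 22 were called lower, and with the block and only the 6 libraries 18 were.

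Of 20 feedback inhibitors and targets of JAK-STAT signalling, 9 were lower and 4 higher (median log2 difference -0.56). Socs3, a feedback inhibitor, averaged 6.89 ± 2.46 CPM in CD41-positive HSC and 21.1 ± 3.07 CPM in CD41-negative HSC (SD, n = 3 each; 3.06-fold lower, adjusted p = 0.000408). Socs2 had 90.7, 111 and 85.8 CPM against 202, 215 and 149 CPM, and Cish 65.8, 124 and 80.5 CPM against 163, 248 and 163 CPM, 1.97-fold and 2.12-fold lower. These 3 inhibitors had no overlap between fractions. The kinases Pim1 and Pim2 were lower as well, by log2 1.09 and 1.12. The 4 higher genes were Gadd45g, a growth arrest gene, at 18.2, 16.3 and 16.7 CPM against 6.82, 5.66 and 5.65 CPM, the survival gene Bcl2l1, Id1 (not without CD41-negative library 3) and Cdkn1a. Myc and Pim3 did not pass (log2 0.06 each).

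Interferon response genes were lower as a group, 29 of 45, with 1 higher and a median log2 difference of -0.73. Ddx58, the RNA sensor RIG-I, had 67, 79.8 and 71 CPM in CD41-positive HSC and 157, 147 and 173 CPM in CD41-negative HSC (2.19-fold lower, adjusted p = 1.72e-05). Gbp9, a guanylate-binding GTPase, had 3.7, 3.24 and 5.39 CPM against 19, 21.4 and 24.5 CPM (5.24-fold lower). No overlap was seen in either. The transcription factors Irf1, Irf7, Irf9 and Stat2 were lower by log2 0.73 to 1.39. Guanylate-binding proteins are close copies of each other, and Gbp2, Gbp3, Gbp4, Gbp6 and Gbp7 were lower with Gbp9. Ifit2 was 1.32-fold higher, at 95.2, 79.9 and 91.6 CPM against 61.4, 63.1 and 77.6 CPM, while Ifit1, Ifit3 and Ifit3b were lower. The calls of Ifit2 and Ifit3 were lost when any of several single libraries was left out. Isg15, Bst2, Ifitm3, Tap1 and the immunoproteasome genes Psmb8 and Psmb9 did not pass. Psmb9 was higher with the replicate block (adjusted p = 0.0736, and 0.0247 with it), and Psmb8 with the block in the 6 V617F libraries alone (0.191, and 0.00175 with it).

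Many genes of oxidative phosphorylation and ribosome biogenesis were higher. Of 38 genes of the first list 28 were higher and none lower (median log2 difference 0.66), among them Ndufb10, a complex I subunit, at 152, 133 and 151 CPM in CD41-positive HSC against 89.7, 77.8 and 82.5 CPM in CD41-negative HSC, and Cox5b, a complex IV subunit, at 99.6, 84.5 and 103 CPM against 53.7, 43.7 and 50.4 CPM. Without CD41-negative library 2 the count was 18. Of 26 ribosome biogenesis genes 12 were higher and none lower (median 0.40), led by Nhp2 at 201, 150 and 202 CPM against 98, 65.7 and 87.3 CPM. This count rested on single libraries: it was 5 without CD41-negative library 2 and 19 without WT CD41-negative library 3 or library 4. Cholesterol synthesis genes were split, 3 higher and 3 lower of 24 (median -0.09), with Ebp, Acat2 and Fdps higher and Insig1, Hmgcs1 and Srebf2 lower. The call of Fdps was lost without CD41-negative library 2, and those of Hmgcs1 and Srebf2 when any of several single libraries was left out. Among 20 genes of the unfolded protein response, 4 were higher, including Asns and Sdf2l1, and 3 lower, led by the 7.43-fold decrease of Trib3, and 10 were higher with the block.

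In the transforming growth factor beta pathway 10 of 21 genes were lower and 5 higher (median log2 difference -0.57). The receptors Tgfbr1 and Tgfbr2 were lower, at 35.6 to 42.8 against 60 to 78.7 CPM for Tgfbr1 and 52.1 to 75.6 against 119 to 138 CPM for Tgfbr2, while the ligand Tgfb1 (2.28-fold) and the latency protein Ltbp1 (7.25-fold) were higher. Of 23 niche adhesion genes 8 were lower and 2 higher: S1pr1, the receptor for egress along sphingosine-1-phosphate, had 37.7, 35.3 and 27.8 CPM against 87.7, 70.4 and 73.7 CPM, and Podxl and Ncam1 were higher, Ncam1 not when any of several single libraries was left out. Cxcr4 did not pass (log2 0.22 ± 0.28). Of 18 Hox and partner genes 5 were lower, all in the Hoxa cluster, a count of 2 or 3 when any single V617F library was left out. In the Bcl2 family 5 of 16 were higher, none lower: Bcl2, the survival gene, had 208, 175 and 219 CPM against 75.5, 67.9 and 84.3 CPM (2.64-fold), and Bcl2l1, Bad, Bax and Bik were higher, Bik not without library 1 of either fraction. Of 20 p53 targets 7 were lower and 3 higher, led by Trp53inp1 at 23.6, 43.2 and 28.2 CPM against 86, 148 and 109 CPM, and 4 were lower without CD41-positive library 1. Of 21 immediate early genes 6 were lower, among them Zfp36, Fosl2 and Junb (Junb not when any of several single libraries was left out), and 3 higher, while Fos, Fosb, Egr1 and Jun varied between replicate numbers and did not pass. With the replicate block Fos was lower (adjusted p = 0.436, and 0.00898 with it) and Fosb higher (0.398, and 0.0272 with it). In the 6 V617F libraries alone the block also called Jun higher (0.00431) and Egr1 lower (0.0141).

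**Figure D4:**
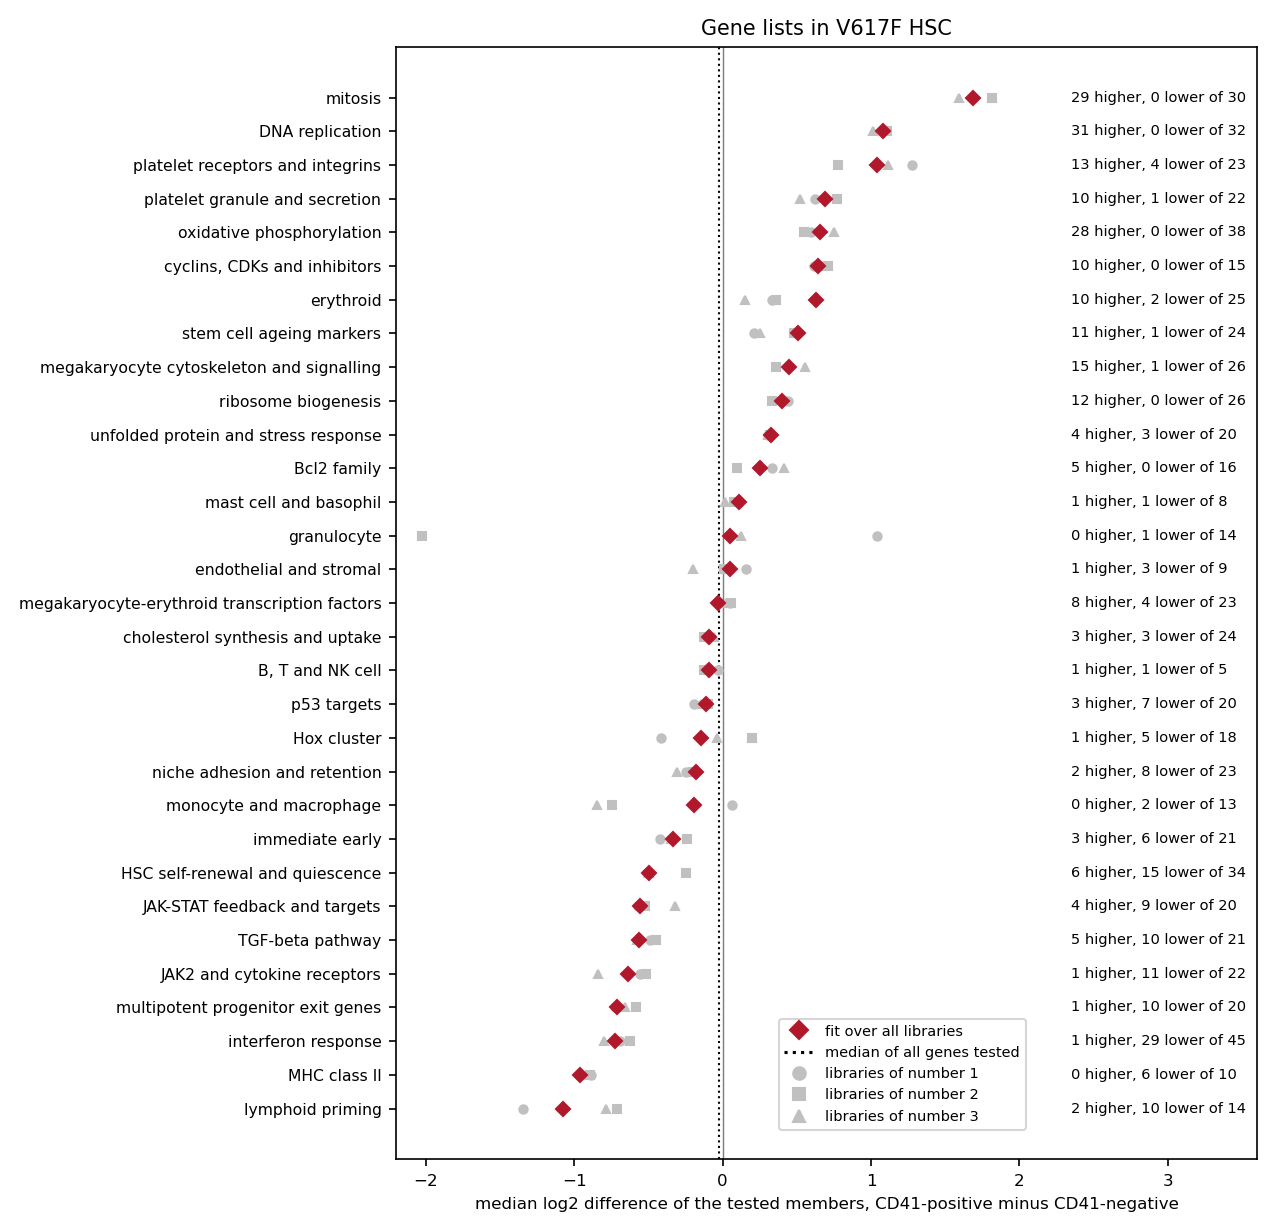
Median log2 difference, CD41-positive minus CD41-negative (x axis), of the tested members of each of the 31 gene lists (y axis) in V617F HSC; diamonds are medians of the fit, grey symbols those of the log2 ratio within each replicate number. The dotted line is the median of all genes tested, -0.02, and the counts at the right give the members called higher and lower; mitosis is the highest and lymphoid priming the lowest list.

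Many markers of other marrow cells were low, but not all. The B cell markers summed to 33.5 to 41.5 CPM in CD41-positive HSC and 36.5 to 42.7 CPM in CD41-negative HSC. The T and NK cell markers summed to 59.4 to 84.7 CPM against 29.7 to 32.1 CPM. For endothelial and stromal markers the sums were 71 to 81.7 CPM against 74.3 to 86 CPM, and for erythroid markers 19 to 26.4 CPM against 38.8 to 117 CPM. Summed over 8 granulocyte markers the libraries held 129, 51.7 and 91.5 CPM in CD41-positive HSC and 185, 162 and 197 CPM in CD41-negative HSC, and 1 gene of the 14 tested on the granulocyte list, Prtn3, was called (lower, 2.89-fold). Mpo had 25.8, 1.35 and 1.08 CPM against 27, 15.7 and 29.9 CPM, and did not pass (adjusted p = 0.387). It passed, as lower, with the block (0.0271) and without CD41-positive library 1 (0.0292). The macrophage genes C1qa, C1qb, C1qc and Adgre1 stayed under 1 CPM in every library. The 5 mast cell and basophil markers, Fcer1a among them, summed to 18.7, 11.5 and 12.7 CPM in CD41-positive HSC and 5.33, 3.42 and 4.38 CPM in CD41-negative HSC. Mcpt8, Prss34 and Ms4a2 were under 1 CPM in all 6 libraries, Prss34 at 0, and Cpa3 did not pass. Ms4a2, the beta chain of the IgE receptor, did not pass (log2 1.91, adjusted p = 0.12), but did in limma-voom (0.031) and with the block in the 6 V617F libraries alone (0.0448). Cd3e was at 0 in all 6 libraries, where the limit of 3 counts is 0.102 to 0.171 CPM by library, counting error only, Cd79a and Ebf1 were under 1 CPM, Nkg7 was 2.42-fold higher and Klrb1c 1.88-fold lower, a call lost when any of several single libraries was left out. On the monocyte list Cd68 was 2.83-fold lower, as was Vcam1, at under 1 CPM. On the endothelial list Cdh5 was under 1 CPM, Alpl was higher, and Emcn, Pdgfrb and Lepr were lower, Lepr at a mean of 0.667 CPM or less and not when any of 3 single libraries was left out. Markers of megakaryocytes summed to 1100, 546 and 1080 CPM in CD41-positive HSC against 134, 136 and 147 CPM in CD41-negative HSC. The part of these cell types in the other differences was not tested.

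In WT mice the same sort gave differences of similar number: 4917 of 14467 genes were called (34%), 2277 higher and 2640 lower. Whether V617F changes the fraction difference was tested as an interaction, and no gene passed in edgeR (0%, smallest adjusted p = 0.566), with 1274 genes at an unadjusted p under 0.05. DESeq2 called 6 and limma-voom 0. Without WT CD41-negative library 4 the interaction called 1766 genes, and without library 1 or library 3 of that group it called 0. The 10 highest genes held 7.8% and 4.44% of the counts in WT CD41-negative libraries 1 and 3, and 2.95% in library 4. The count thus depends on which WT CD41-negative libraries are in the fit, and the part of each was not tested. Granulocyte markers summed to 564, 114 and 163 CPM in WT CD41-negative libraries 1, 3 and 4, and to 90.9 and 82.3 CPM in WT CD41-positive libraries 3 and 4. The values of single genes are given as they stand. Pf4 differed by log2 5.55 in V617F and 4.70 in WT, Gfi1 by -4.66 and -3.78, Hlf by -1.79 and -1.60, Flt3 by -2.64 and -2.17, and Birc5 by 2.22 and 2.03. Klf1 differed by 2.96 in V617F, with 29 ± 5.62 against 3.7 ± 0.865 CPM (SD, n = 3 each), and by 0.89 in WT, with means of 27.9 and 15.1 CPM. Nov was lower in V617F CD41-positive HSC, whereas WT CD41-positive and CD41-negative HSC averaged 0.266 and 0.226 CPM. On the interferon list 29 of 45 genes were lower in V617F and 13 in WT, with medians of -0.73 and -0.31. On the JAK-STAT target list 9 and 3 of 20 were lower, and Socs2 differed by -0.98 in V617F and -0.23 in WT. On the erythroid list 10 genes were higher and 2 lower in V617F, and 4 higher and 5 lower in WT. On the mitosis list 29 of 30 were higher in both. Some other lists had more lower calls in WT. Of 22 kinases, STATs and cytokine receptors 11 were lower in V617F and 15 in WT (medians -0.63 and -0.72). For MHC class II the counts were 6 and 8 of 10, and for stem cell genes 15 and 17 of 34. No single gene passed the interaction test, and the list counts of the genotypes were not tested against each other.

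Megakaryocyte progenitors were set against LT-HSC as well, in libraries that do not enter the CD41 comparison. The sort of these populations may also have used CD41 or Sca-1. Ly6a is therefore a description only here, and the overlap between the comparisons is no independent support. V617F MkP against V617F LT-HSC called 156 of 14281 genes (1.09%), 54 higher (0.378%) and 102 lower (0.714%), and sex differed with the population (MkP female, LT-HSC male). Among the 13908 genes tested in both comparisons, 45 genes were higher in both, 1.9% of the 2365 higher in CD41-positive HSC and 84.9% of the 53 higher in MkP. Another 97 were lower in both, 3.83% of 2533 and 95.1% of 102, and no gene was called in opposite directions. Over all 13908 genes, 17% were higher and 18.2% lower in CD41-positive HSC, and 0.381% higher and 0.733% lower in MkP. Pf4 averaged 2436 ± 352 CPM in MkP and 39.2 ± 10.8 CPM in LT-HSC (SD, n = 3 each; log2 5.96), beside 5.55 for the CD41 fractions. F2rl2, Cavin2, Vwf, Serpine2 and Plek were higher in both comparisons, and Hlf, Procr, Ly6a, Ltb, Cd74, Ctss, Socs2 and Csf3r lower in both. Procr averaged 0.651 CPM in MkP and 90.6 CPM in LT-HSC, where CD41-positive and CD41-negative HSC had 21.3 ± 14 and 117 ± 16.8 CPM. Clu and Itgb3, higher in CD41-positive HSC, did not pass between MkP and LT-HSC (log2 1.42 and 2.04, adjusted p = 0.125 and 0.181). Mpo was called higher in MkP, whereas it was lower by log2 1.38 in CD41-positive HSC without passing.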

How the data were processed

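RNA was measured in sorted mouse marrow cells by poly(A) RNA sequencing, with SMART-Seq v4 for the CD41 fractions. The deposited values are raw read counts per gene for all 23 libraries, made by the authors with STAR 2.5.2a on mm10, and R 3.4.2 and limma are also listed, per the submitters' processing notes. The counting tool, its annotation and its use of strand are not given in the sources used here, so overlapping genes and near-identical copies are uncertain. Of 24454 gene identifiers, 24374 (99.7%) matched a RefSeq gene.

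The 11 SMART-Seq v4 libraries were fitted together in edgeR 4.0.16 (R 4.3.3) with TMM scaling, the filterByExpr filter and 1 mean per group, so the WT libraries share in the estimate of the spread. Each contrast used edgeR's quasi-likelihood F test with Benjamini-Hochberg adjustment over all genes tested, and an adjusted p under 0.05 was called. CPM are counts per M reads of the TMM-scaled library, SE are those of the fitted log2 difference, and fold values are the fitted ones. MkP and LT-HSC were fitted in the 12 SMART-Seq v2 libraries, per the labels. DESeq2 1.42.0 and limma 3.58.1 (voom) were alternatives, beside other scaling, filters, a replicate block and left-out libraries. The script was tested on simulated counts. Depth was 18.2 to 28.5 M reads in the 6 libraries, and 3 counts were taken as the floor of a library.

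Residuals of libraries with the same number correlated at 0.301, 0.419 and 0.298 and those of other pairs at -0.258 to -0.00601. Each residual was taken from its group's mean, so positive values for equal numbers go with negative ones for other pairs. Sex also went with the number in both fractions. No label states that equal numbers are pairs. The main fit did not pair them, and the replicate block, which does, was an alternative. Values from the block, in all 11 libraries or in the 6 V617F libraries alone, stand beside a named gene where they change its call. The genes named were the 15 largest called differences in each direction among genes whose higher fraction averaged at least 10 CPM and whose ranges were apart (predicted, pseudo-, mitochondrial, X- and Y-linked genes and Itga2b left out), members of each list among the 4 with the smallest adjusted p, the sort markers, Jak2 and Socs2. Other list members named were chosen after their values were seen. The members and the lists, 644 symbols of which 3 did not match, were chosen with earlier results of these data known. Promoters are RefSeq sequence of GRCm38.p6. Some list members are not reported here by name.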

Additional observations from a re-analysis of the deposited data

How the results depend on the processing

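The count of genes called in V617F CD41-positive against CD41-negative HSC was 4960, and it was within 1.5 times of that under RLE scaling, DESeq2, limma-voom, both filters and each library left out (3380 to 6314 genes, 1611 to 3094 higher and 1769 to 3220 lower). With the replicate block 5771 genes were called in all 11 libraries, 2783 higher and 2988 lower, and 8196 in the 6 V617F libraries alone, 4121 higher and 4075 lower. Leaving out both libraries of a number gave 2831 (1409 higher, 1422 lower) without number 1, 3333 (1492 higher, 1841 lower) without number 2 and 2224 (1024 higher, 1200 lower) without number 3. The fit then has fewer samples. In WT, leaving out 1 library gave 1216 to 7082 calls (606 to 3508 higher, 610 to 3574 lower). Without WT CD41-negative libraries 1 and 3, a choice made after seeing the data, 1926 were called (929 higher, 997 lower). The difference between genotypes gave 6 calls in DESeq2 (1 higher, 5 lower) and 0 to 1766 with 1 library left out (0 to 846 higher, 0 to 920 lower). MkP against LT-HSC gave 693 calls in DESeq2 (199 higher, 494 lower), 306 in limma-voom (89 higher, 217 lower) and 2972 in its 6 libraries alone (1069 higher, 1903 lower), against 31 to 52 with 1 library left out (17 to 23 higher, 12 to 33 lower). The cause of these shifts was not tested. A fit that leaves 1 library in a group assumes that it varies like the other groups.

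Of 228 genes that were examined singly and called, 177 kept the call under each of the 22 alternatives that tested them. Another 51 lost the call under at least 1, and none reversed. A gene that a filter removed was not counted as lost. The 228 include the largest differences. Of all 4960 calls, 56.6% were kept without both number 1 libraries, 65.2% without both number 2 libraries and 44.5% without both number 3 libraries. Calls of named genes that the replicate block changed stand beside the results. Losses of named genes with 1 library left out stand beside the results. The medians of 7 lists changed sign in some alternative: megakaryocyte-erythroid transcription factors, granulocyte, monocyte and macrophage, mast cell and basophil, B, T and NK cell, endothelial and stromal, and Hox genes. Depth limits the lowest genes, since 3 counts correspond to 0.102 to 0.171 CPM in the 6 libraries.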

Other observations

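Several gene families that no list held were read after their values had been seen, so their counts are descriptions without a test of the family. Of 62 replication-dependent histone genes tested, 40 were higher in V617F CD41-positive HSC and none lower than in CD41-negative HSC, with a median log2 difference of 1.40. These genes supply the histones of newly copied DNA, are near-identical to each other, and reads may be shared among them. Of 80 cytosolic ribosomal protein genes 36 were higher and none lower (median log2 difference 0.54), and of 19 tubulin genes 10 were higher and 1 lower (0.65). The tubulins that rose included Tubb1 and Tuba8, and Tubb6 fell. Of 8 Gimap genes, GTPases of lymphocyte survival, 7 were lower (median log2 difference -1.57). Of 24 MHC class I genes 2 were lower and none higher, with a median of -0.11, beside -0.96 for the class II list. Over all 14467 genes, 16.4% were higher and 17.9% lower.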
